A study of Oryza sativa Japonica Group with 32 samples.

Results

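A set of 10 rice genes that build and regulate the maturing embryo were followed through 8 tissues. Of the 10 genes, 5 encode regulators, namely OsLEC1 (Os02g0725700), OsVP1 (Os01g0911700), OsLFL1 (Os01g0713600), OsABI5 (Os01g0859300) and Sdr4 (Os07g0585700). Another 3 encode late embryogenesis abundant (LEA) proteins, namely OSEM (Os05g0349800), LEA3 (Os05g0542500) and Rab21 (Os11g0454300), and 2 encode oleosins, OLE16 (Os04g0546500) and OLE18 (Os03g0699000). They were chosen by gene identifier for these roles, out of 38978 genes with an expression value. All 10 were among the 28562 genes tested, and 9 of them carried 46 of the 205691 listed m6A sites.

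The material was the japonica cultivar Nipponbare, unmodified. Embryo, endosperm and flag leaf were taken 10 days after anthesis, plumules (the first shoots of germinated seeds) 3 days after germination in the light or in continuous dark, seedlings at 8 days and at 2 weeks, and panicles at heading. PolyA RNA was profiled by m6A-SAC-seq, in which an enzyme labels m6A so that it is read as a mutation, with 2 treated and 2 untreated libraries per tissue (32 in all). Expression was measured in the 16 untreated libraries as TPM (transcript abundance scaled for gene length and library total), while m6A was deposited as 1 fraction per site and tissue. Reads recovered from the TPM values came to between 12856679 and 15516038 per library. Embryo and endosperm were tissue dissections, and whether the aleurone, the outer cell layer of the endosperm, stayed with the endosperm is not stated in the sources used here.

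When the cereal embryo has formed its organs it enters maturation, in which it stores oil and protein, becomes dormant and prepares to dry out. LEC1 (an NF-YB subunit) and the B3 proteins VP1 and LFL1 direct this program, and with the bZIP factor ABI5 they turn on genes that respond to the hormone abscisic acid (ABA). LEA proteins protect dried cells, and oleosins coat the oil bodies of the scutellum and of the aleurone. The program is shut down when the seed germinates.

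The tissue labels were set beside marker genes. The summed level of 35 starchy endosperm genes (glutelins, prolamins and granule-bound starch synthase) lay between 17692 and 18415 TPM in embryo and between 216730 and 237030 TPM in endosperm. Of the 24 such genes with at least 100 TPM in endosperm, embryo held 0.77% to 12.4% of the endosperm level, with a median of 8.36%. In the other direction, 3 meristem genes (OSH1, OSH15 and QHB) summed to 0.0937 and 0.185 TPM in endosperm, against 25.7 and 26.6 TPM in embryo, so that endosperm held 0.533% of the embryo level. Their sum was higher in panicle (88.4 and 88.8 TPM) and in light plumules (31.0 and 31.8 TPM) and dark plumules (31.0 and 31.3 TPM). These genes mark meristems, not only those of the embryo, and not the scutellum. Summed over 9 green-leaf genes (Rubisco small subunit and chlorophyll-binding proteins), seedlings, flag leaf and panicle lay between 16236 and 57893 TPM, plumules at 3448 and 3771 TPM in the light and at 4597 and 4604 TPM in the dark, embryo at 1071 and 1058 TPM and endosperm at 2691 and 3137 TPM. In embryo nearly all of this sum was RbcS1, at 1035 and 1014 TPM, and the other 8 genes summed to 35.9 and 43.6 TPM in embryo and to 2568 and 3029 TPM in endosperm. The green-leaf genes were not higher in light than in dark plumules. Of the 4 floral MADS genes, the sum was 754 and 811 TPM in panicle, 311 and 336 TPM in endosperm and at most 14.5 TPM elsewhere. Where all genes are compared in TPM, a few very abundant storage transcripts take up much of the endosperm total. A rescaling of the libraries by the median of ratios moved the median difference of all genes by -0.24 for embryo against endosperm, 0.24 for embryo against the 6 non-seed tissues, 0.55 for endosperm against them, -0.16 for plumules against embryo, 0.10 for plumules against older tissues and -0.31 for panicle against leaves, all on the log2 scale. In bulk tissue, fewer cells of a type and less RNA per cell cannot be told apart.

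**Figure D1:**
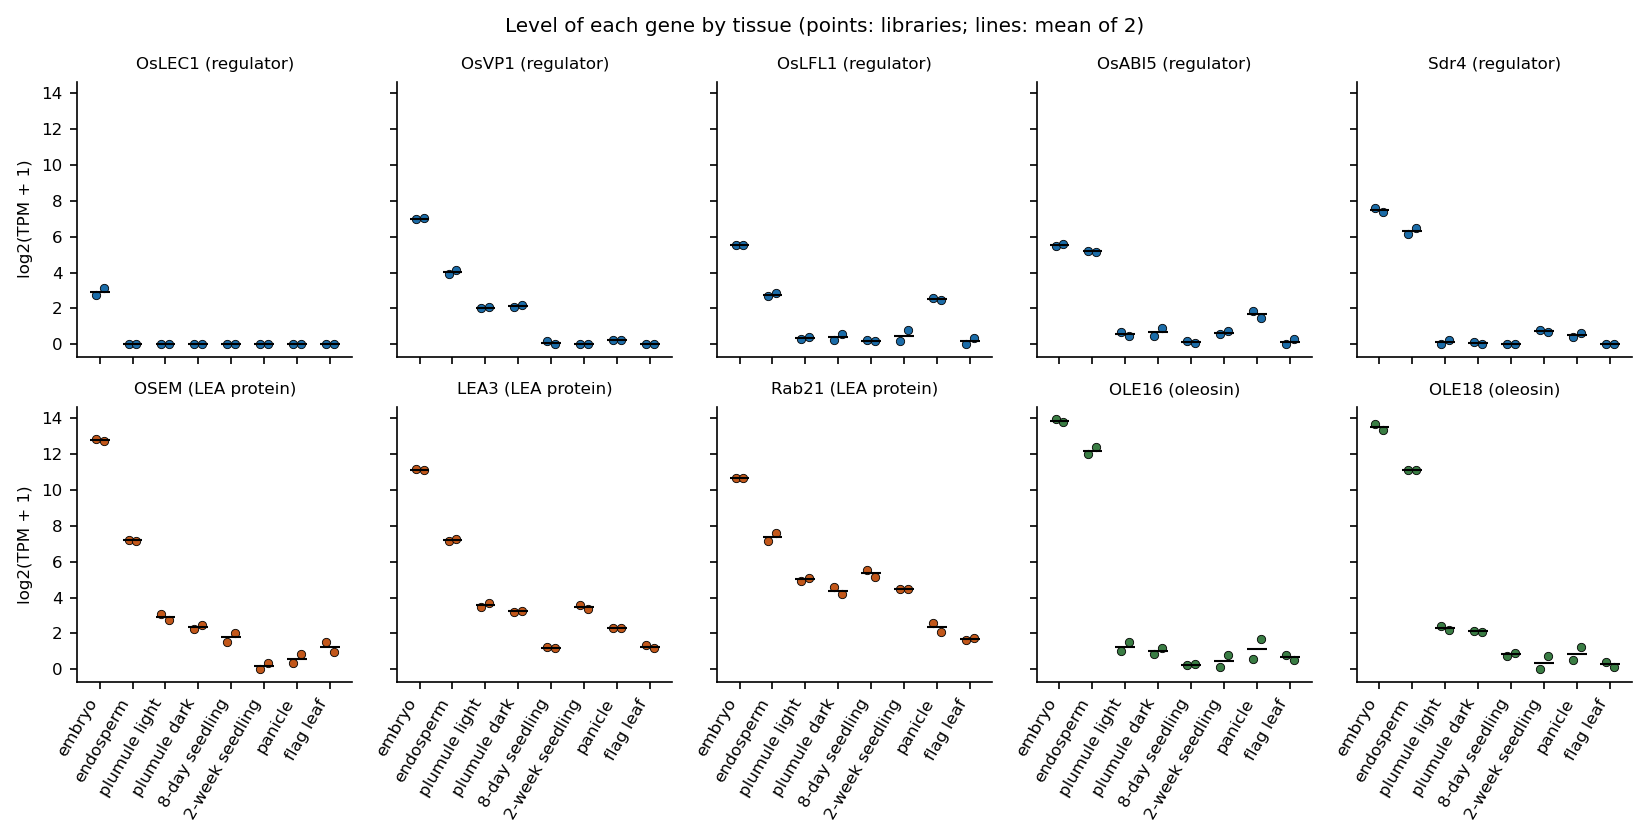
Expression of the 10 genes, as log2(TPM + 1), in the 2 untreated libraries of each of 8 tissues (points, with a line at the mean of 2). In TPM every gene was highest in embryo (OsABI5 by a difference that did not pass the test and that turned after rescaling), 9 were next highest in endosperm and OsLEC1 was at 0 outside the embryo, and the scale is the same in all panels.

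The 5 regulators differed in how far they extended into endosperm, with OsLEC1, OsVP1 and OsLFL1 mostly in embryo. OsLEC1, the NF-YB subunit that acts early in the program, was measured at 5.66 and 7.73 TPM in embryo (72 and 92 reads) and at 0 in the other 14 libraries. Against a floor of 3 reads per library it was at least 30.2-fold higher in embryo than in endosperm and at least 22.3-fold higher than in any non-seed tissue. It passed the filter on low values only through embryo, so it had to differ. The B3 factor OsVP1, which activates LEA genes with ABA, stood at 125 and 129 TPM in embryo, against 14.1 and 16.7 TPM in endosperm. The embryo level was 8.21 times that of endosperm, and the difference of log2(TPM + 1) was 2.96 (SE 0.11, adjusted p = 3.2e-11). OsLFL1, a B3 protein that also represses flowering when rice overexpresses it, stood at 45.2 and 45.8 TPM in embryo and at 5.45 and 6.19 TPM in endosperm. Its embryo level was 7.81 times that of endosperm (difference of 2.77 on the log2 scale, SE 0.18, adjusted p = 9.4e-09).

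OsABI5 and Sdr4 were spread more evenly over both seed compartments. OsABI5, the bZIP factor that carries the ABA signal to LEA genes, had 43.6 and 47.0 TPM in embryo, against 36.2 and 34.4 TPM in endosperm. The libraries did not overlap, but the difference of 0.35 (SE 0.17) did not pass the test (adjusted p = 0.083), and it turned to -0.15 after the rescaling and to -0.18 in a count test. Sdr4, which sets the depth of seed dormancy, had 190 and 166 TPM in embryo and 71.0 and 87.9 TPM in endosperm, an embryo level 2.24 times as high (difference of 1.16, SE 0.14, adjusted p = 4.2e-06). Endosperm thus held 77.8% of the embryo level of OsABI5 and 44.7% of that of Sdr4, but 12.2% of that of OsVP1 and 12.8% of that of OsLFL1. Within single libraries, the ratio of OsABI5 to OsVP1 was 0.35 and 0.366 in embryo and 2.56 and 2.06 in endosperm. The ratio of Sdr4 to OsVP1 was 1.52 and 1.29 in embryo and 5.03 and 5.25 in endosperm. These ratios do not depend on how the libraries are scaled.

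Next to OsLEC1, the LEA genes had the lowest endosperm levels relative to embryo, at 2.06% for OSEM, 6.51% for LEA3 and 10.2% for Rab21. The range of Rab21 over library pairs (8.45% to 12%) overlapped that of OsVP1 (11% to 13.4%). OSEM, the rice form of the wheat Em protein, reached 7256 and 6868 TPM in embryo and 148 and 143 TPM in endosperm. It ranked 13 among all genes in embryo and 723 in endosperm, and the embryo level was 48.6 times as high (difference of 5.59, SE 0.22, adjusted p = 6.3e-11). LEA3, a LEA protein that also responds to salt and drought in leaves, had 2269.7 and 2209 TPM in embryo, against 141 and 150.2 TPM in endosperm. Its embryo level was 15.4 times that of endosperm (difference of 3.93, SE 0.10, adjusted p = 7.4e-13). The dehydrin Rab21 (also called Rab16A), named for its response to ABA, had 1643 and 1618 TPM in embryo and 139 and 194 TPM in endosperm. Its embryo level was 9.81 times that of endosperm (difference of 3.31, SE 0.18, adjusted p = 1.7e-09). Rab21 lies in a tandem array of closely related dehydrin genes, and how the authors' counting split shared reads is not given, so its level and those of its neighbors are uncertain.

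Both oleosins were among the most abundant transcripts of the whole seed. OLE16 stood at 15829 and 14091 TPM in embryo, against 4164 and 5298 TPM in endosperm. It ranked 6 among all genes in embryo and 23 in endosperm, with an embryo level 3.16 times as high (difference of 1.67, SE 0.32, adjusted p = 5.4e-04). OLE18 stood at 13088 and 10519 TPM in embryo and at 2209.8 and 2198 TPM in endosperm, ranking 7 in embryo and 41 in endosperm. Its embryo level was 5.36 times that of endosperm (difference of 2.41, SE 0.24, adjusted p = 8.3e-07). OLE16 exceeded OLE18 by 1.21 and 1.34 times in the embryo libraries and by 1.88 and 2.41 times in the endosperm libraries. Both oleosins together made up 2.89% and 2.46% of all TPM in embryo and 0.637% and 0.75% in endosperm. The 3 LEA genes made up 1.12% and 1.07% of all TPM in embryo, against 0.0428% and 0.0486% in endosperm.

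**Figure D2:**
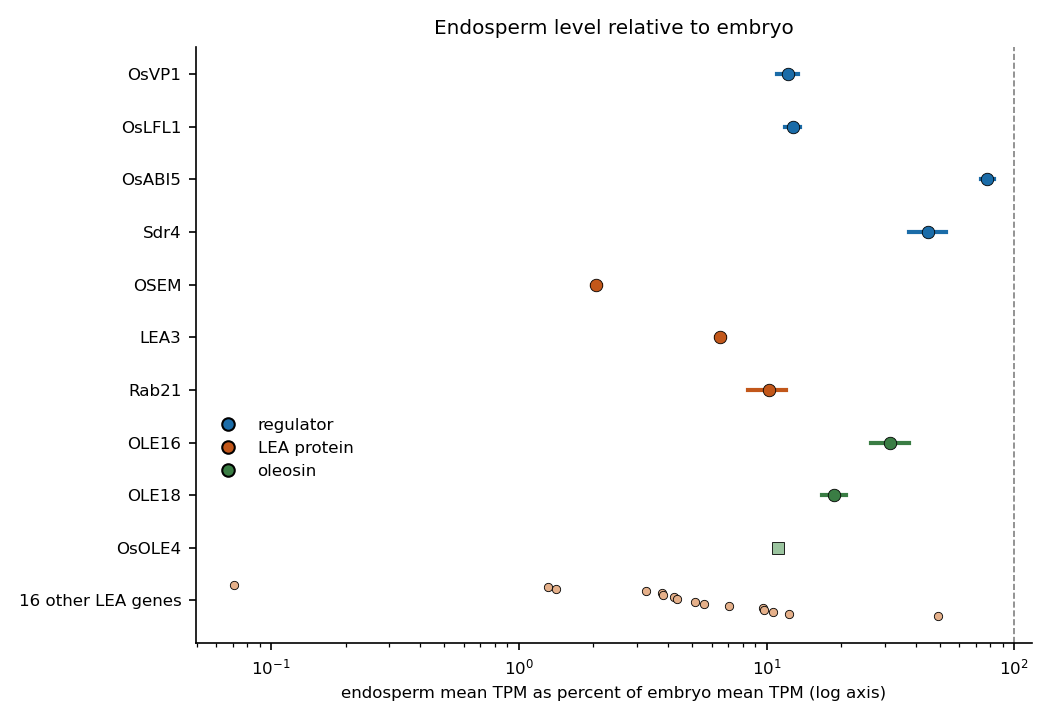
Endosperm mean TPM as a percent of embryo mean TPM, on a log axis, for 9 of the genes, for OsOLE4 and for 16 other LEA genes with at least 100 TPM in embryo (OsLEC1, at 0 in endosperm, is left out). Bars on the 9 genes span the 4 pairs of libraries, and their values run from 2.06% for OSEM to 77.8% for OsABI5, while those of the 16 other LEA genes run from 0.0708% to 49.1%.

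Of the 10 genes, 9 were higher in embryo than in endosperm and none was lower, by limma on log2(TPM + 1) across all genes with Benjamini-Hochberg adjustment. The 9 and the median of the members include OsLEC1, which had to differ because it passed the filter on low values through embryo alone. Over all genes tested, 44.6% were higher in embryo and 24.4% were lower. The median difference of the members was 2.85, against 0.20 for all genes. With the rescaled TPM, 9 members were higher, while 45.7% of all called genes were higher in embryo, against 64.7% of the calls before. The part that embryo tissue in the endosperm samples has in the endosperm levels was not tested. The measured level of the meristem markers there was 0.533% of that in embryo, while the members other than OsLEC1 stood at 2.06% to 77.8% of it.

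The other genes of the pathway followed the members in part. Of 33 further LEA and dehydrin genes, 22 were higher in embryo than in endosperm, where 44.6% of all genes tested were higher. Another 5 were lower, where 24.4% of all genes were lower, and the median difference was 3.35. Among the 33 genes, 3 matched the list by spelling only and are no LEA genes, and without them 21 of 30 were higher and 4 lower. The 3 most abundant of them were OsLEA20 (3608 ± 86.8 TPM in embryo and 2.55 ± 0.17 TPM in endosperm, SD, n = 2 each), OsLEA14 (2263 ± 19.8 TPM in embryo and 86.4 ± 2.75 TPM in endosperm) and OsLEA25 (2148 ± 174 TPM in embryo and 90.6 ± 25.2 TPM in endosperm). Of the 16 LEA genes with at least 100 TPM in embryo, endosperm held 0.0708% to 49.1% of the embryo level, with a median of 4.74%. The further oleosin gene OsOLE4 stood at 845 ± 124 TPM in embryo and 94.2 ± 5.87 TPM in endosperm, 11.1% of the embryo level.

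Related regulators and ABA genes lay on both sides. Of 8 ABA-response bZIP, B3 and NF-YB genes, 3 were higher in embryo than in endosperm and 2 were lower, shares near the 44.6% and 24.4% of all genes. GD1, a B3 protein needed for germination, was higher in embryo (134 ± 11.1 TPM in embryo and 26.9 ± 0.73 TPM in endosperm). HAP3K (OsNF-YB1), an NF-YB subunit of the OsLEC1 family that acts in grain filling, was lower in embryo, with 15.0 ± 1.14 TPM there and 490.1 ± 35.3 TPM in endosperm. IDEF1, a B3 protein of the iron response, had 27.8 ± 1.70 TPM in embryo and 29.7 ± 1.55 TPM in endosperm. Of 22 tested genes for ABA synthesis, breakdown and perception, 5 were higher in embryo and 12 were lower, with a median difference of -0.85, beside the same 44.6% and 24.4% of all genes. The ABA synthesis gene OsNCED1 (Os02g0704000) had 0.147 ± 0.023 TPM in embryo and 8.23 ± 0.54 TPM in endosperm. Another gene with the symbol OsNCED1 (Os03g0645900), named here only for that, went the other way. It had 8.10 ± 0.23 TPM in embryo and 2.33 ± 1.61 TPM in endosperm. The receptor genes OsPYL/RCAR5 (40.4 ± 1.18 TPM in embryo and 38.9 ± 0.56 TPM in endosperm) and OsPYL/RCAR3 (13.7 ± 1.49 TPM in embryo and 14.8 ± 1.51 TPM in endosperm) did not pass the test.

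Against the 6 non-seed tissues, all 10 genes tested were higher in embryo, where 24.3% of all genes tested were higher. OsLEC1, which passed the filter through embryo alone, had to be higher, and it enters the median of the members. The median difference was 7.02 for the members and -0.35 for all genes. In endosperm 9 of the 10 were higher than in the same 6 tissues, where 15.7% of all genes were higher, and the exception was OsLEC1 with no read on either side. Both comparisons share the 12 non-seed libraries. The differences in endosperm ran between 2.08 for OsLFL1 and 11.39 for OLE16, and those in embryo between 2.93 for OsLEC1 and 13.06 for OLE16. The mean embryo level of OLE16 was 10305 times, that of OLE18 2959 times and that of OSEM 1060 times the level of the highest non-seed tissue. The corresponding folds were 202 for LEA3, 40.6 for Rab21, 36.9 for OsVP1, 263 for Sdr4, 20.3 for OsABI5 and 9.68 for OsLFL1. Embryo held 53.5% (OsABI5) to 100% (OsLEC1) of the summed tissue means of each member. Over all genes tested, the median share was 8.33% for embryo and 5.75% for endosperm.

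**Figure D3:**
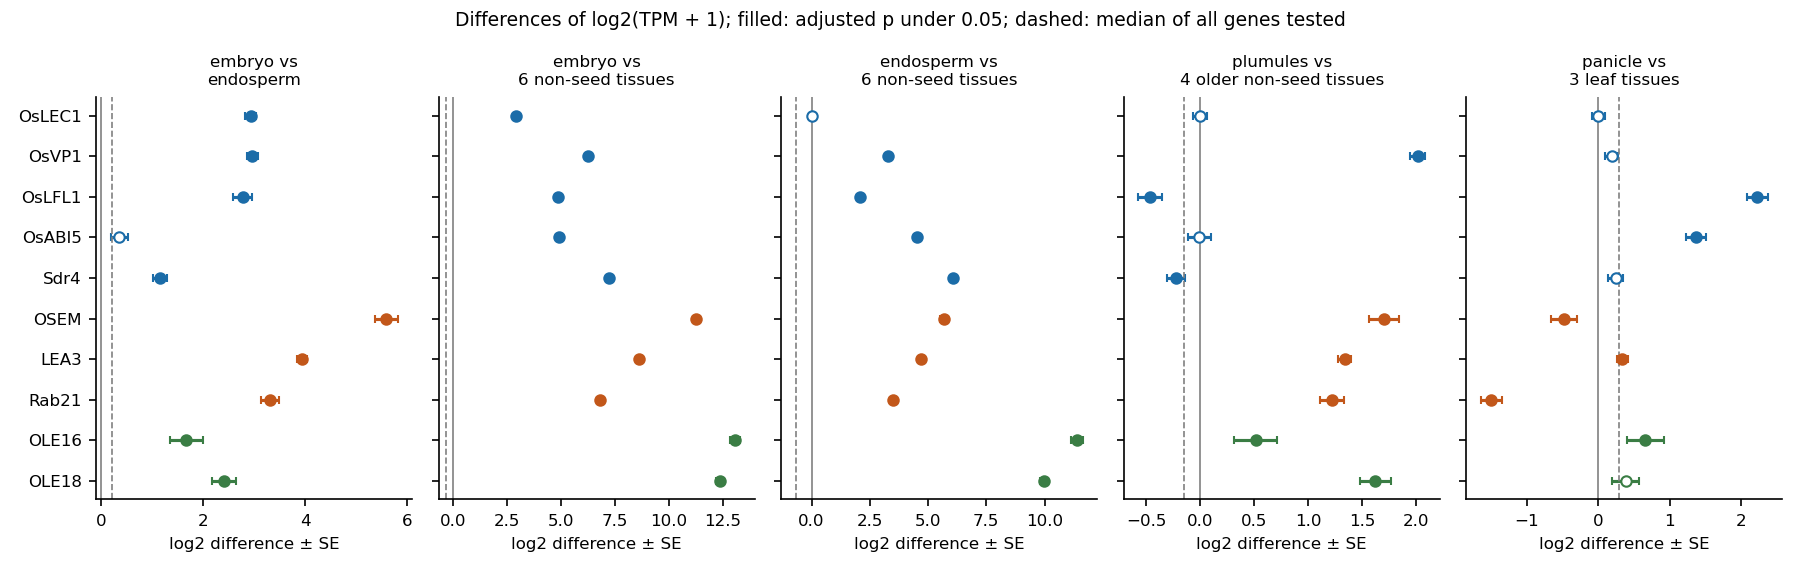
Difference of log2(TPM + 1) with its standard error for each gene in 5 comparisons, where filled points passed an adjusted p under 0.05 and the dashed line is the median of all genes tested. OsABI5 alone did not pass between embryo and endosperm among the 10 genes, and in the last 2 comparisons the members fell on both sides of 0.

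In germinated shoots each gene stood far below its embryo level, and OsLEC1 alone was at 0 in all 4 plumule libraries. All 10 genes were lower in the plumules of both light regimes than in embryo, where 24.6% of all genes were lower. The median difference was -6.69 for the members and 0.20 for all genes. Both the count and the median of the members include OsLEC1, which had to differ because it passed the filter through embryo alone. OLE16 had 1.01 and 1.89 TPM in light plumules and 0.842 and 1.26 TPM in dark plumules (8 to 18 reads per library), against 15829 and 14091 TPM in embryo. The difference of OLE16 was -12.72 (SE 0.28, adjusted p = 7.7e-13). OSEM had 7.52 and 5.80 TPM in light plumules and 3.69 and 4.60 TPM in dark plumules, a difference of -10.14 from embryo (SE 0.19, adjusted p = 1.4e-14). OsVP1, the regulator with the highest level in plumules, had 3.0 and 3.18 TPM in light plumules and 3.29 and 3.57 TPM in dark plumules, a difference of -4.91 (SE 0.10, adjusted p = 1.8e-14).

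Several members were higher in plumules than in older tissues. Of the 10 genes, 6 were higher in plumules than in the mean of 8-day seedling, 2-week seedling, panicle and flag leaf, where 34.3% of all genes were higher, and 2 were lower, where 48.0% of all genes were lower. OsVP1 was the clearest, since its 3.0 to 3.57 TPM in the 4 plumule libraries (89 to 94 reads) stood against at most 0.165 TPM in the 8 older libraries (4 reads or fewer). Its difference was 2.01 (SE 0.07, adjusted p = 3.9e-12). OLE18 had 4.43 and 3.55 TPM in light plumules and 3.45 and 3.23 TPM in dark plumules, against at most 1.36 TPM in the older libraries (difference of 1.62, SE 0.15, adjusted p = 1.8e-07). OSEM was higher by 1.70 (SE 0.14, adjusted p = 4.6e-08), with a highest older level of 3.14 TPM in an 8-day seedling library.

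LEA3 and Rab21 were higher in plumules than the mean of the older tissues, but not higher than each of them. LEA3 had 10.1 and 12.1 TPM in light plumules and 8.02 and 8.70 TPM in dark plumules, against 10.9 and 9.45 TPM in 2-week seedlings and 1.26 to 4.01 TPM in the other older libraries (difference of 1.34, SE 0.06, adjusted p = 8.5e-11). Rab21 had 29.8 and 32.8 TPM in light plumules and 22.6 and 17.1 TPM in dark plumules. In the older tissues Rab21 had 45.1 and 35.1 TPM in 8-day seedlings, 21.6 TPM in both 2-week seedling libraries, 5.01 and 3.31 TPM in panicles and 2.13 and 2.33 TPM in flag leaves (difference of 1.22, SE 0.11, adjusted p = 1.8e-07). Outside the seed, Rab21 was thus highest in 8-day seedlings, and the libraries of 2-week seedlings and dark plumules overlapped. OLE16 passed with a difference of 0.51 (SE 0.20, adjusted p = 0.029), which was lost without light plumule replicate 2, dark plumule replicate 2, 2-week seedling replicate 1 or flag leaf replicate 2 (adjusted p 0.0565 to 0.137). OsLFL1 was lower by 0.46 (adjusted p = 0.0015) and Sdr4 by 0.22 (adjusted p = 0.026) on levels under 1 TPM in plumules, and neither passed in the count tests. The call of Sdr4 was also lost without light plumule replicate 1, dark plumule replicate 2 or panicle replicate 2 (adjusted p 0.0545 to 0.133). OsABI5 was not called (difference of -0.0080), but it was higher in plumules by both count tests (adjusted p = 0.046 with edgeR and 0.037 with DESeq2).

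**Figure D4:**
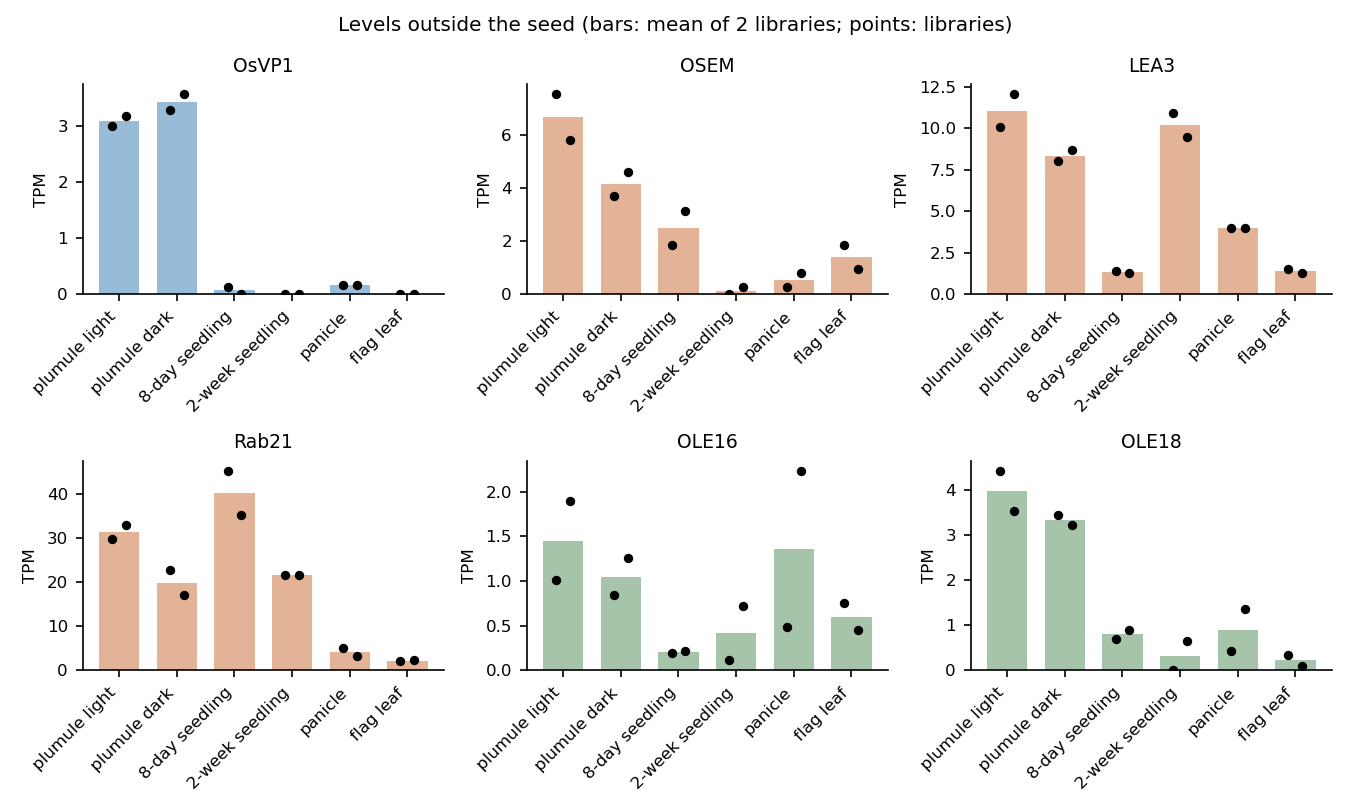
TPM of OsVP1, OSEM, LEA3, Rab21, OLE16 and OLE18 in the 6 non-seed tissues (bars are means of 2 libraries and points the libraries; each panel has its own axis from 0). OsVP1 and OLE18 were highest in the plumules, LEA3 in light plumules and 2-week seedlings, and Rab21 in 8-day seedlings.

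Light did not move the members past the test. Between light and dark plumules none of the 10 genes was called, where 0% of all genes tested were higher and 0.0105% (3 genes) were lower. Unadjusted p-values were under 0.05 for 3 members, all LEA genes and all higher in light, and for 6.52% of all genes tested. Rab21 had 29.8 and 32.8 TPM in light and 22.6 and 17.1 TPM in dark (difference of 0.64, SE 0.18, adjusted p = 0.35), LEA3 10.1 and 12.1 TPM in light and 8.02 and 8.70 TPM in dark (0.36, SE 0.10, adjusted p = 0.34) and OSEM 7.52 and 5.80 TPM in light and 3.69 and 4.60 TPM in dark (0.57, SE 0.22, adjusted p = 0.62). Libraries did not overlap in any of the 3. The summed green-leaf genes, at 3448 and 3771 TPM in light and 4597 and 4604 TPM in dark, ran the other way, and their part in the result was not tested. On the recovered reads edgeR called 0 members and DESeq2 called Rab21 alone (adjusted p = 0.036).

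Heading panicles, which hold flowers with pollen, were set beside the leaf tissues. On the log2(TPM + 1) scale, 4 of the 10 genes were higher in panicle than in the mean of 8-day seedling, 2-week seedling and flag leaf. Over all genes tested, 51.8% were higher. Another 2 of the 10 were lower, where 24.1% of all genes were lower. OsLFL1 had 4.86 and 4.53 TPM in panicle (68 and 62 reads), against 0 to 0.713 TPM in the 6 leaf libraries, a difference of 2.23 (SE 0.15, adjusted p = 9.2e-09). In TPM the endosperm level of OsLFL1 (5.45 and 6.19 TPM) was 1.24 times that in panicle, and after the rescaling 2.89 times, with no overlap of the libraries on either scale. OsABI5 had 2.65 and 1.81 TPM in panicle, against 0 to 0.66 TPM in the leaf libraries, a difference of 1.38 (SE 0.14, adjusted p = 8.1e-07). Rab21 was lower in panicle than the leaf mean by 1.5 (SE 0.15, adjusted p = 6.6e-07), but not lower than each leaf tissue. As given above, its panicle libraries (5.01 and 3.31 TPM) lay above those of flag leaf (2.13 and 2.33 TPM). OSEM, the other gene called lower, had 0.257 and 0.789 TPM in panicle and 0 and 0.256 TPM in 2-week seedlings. The other 3 calls changed with the processing. LEA3 had 4.01 TPM in both panicle libraries, below the 10.9 and 9.45 TPM of 2-week seedlings. It was higher in panicle only than in 8-day seedlings (1.36 and 1.26 TPM) and flag leaves (1.52 and 1.29 TPM). Its call thus rests on the mean of log2 values. LEA3 (0.34, adjusted p = 0.0017) and OLE16 (0.66, adjusted p = 0.037) were not called after the rescaling, in which 47.9% of all called genes were higher in panicle, against 68.3% before. OLE16 was also lost without either 8-day seedling library, 2-week seedling replicate 1, panicle replicate 2 or flag leaf replicate 2 (adjusted p 0.053 to 0.726). OSEM, lower by 0.48 (adjusted p = 0.030), was lost without 8-day seedling replicate 2, 2-week seedling replicate 2, panicle replicate 1 or flag leaf replicate 1 (adjusted p 0.0604 to 0.394). Neither count test called LEA3 (adjusted p = 0.195 with edgeR and 0.416 with DESeq2) or OSEM (0.258 and 0.189), while both called OLE16 (0.047 and 0.026). Both also called OsVP1 (0.0016 and 0.0014) and Sdr4 (0.013 and 0.0097) higher in panicle, on 3 to 5 reads in each panicle library, which the test on log2(TPM + 1) did not (adjusted p = 0.073 for OsVP1 and 0.063 for Sdr4). That test called OsVP1 without 8-day seedling replicate 1 (adjusted p = 0.038), Sdr4 without panicle replicate 1 (0.047) and OLE18 without 2-week seedling replicate 2 or panicle replicate 1 (0.015 and 0.0080).

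Over the 8 tissue means of log2(TPM + 1), the members resembled each other to different degrees. Pearson's r between OLE16 and OLE18 was 0.993, between OLE16 and Sdr4 0.995 and between OsVP1 and OSEM 0.975, while OsLFL1 and Rab21 reached 0.741. These are descriptions over 8 tissues that share their libraries. Among 19256 genes with at least 10 TPM in a tissue, the one most like OLE18 was Os1-CysPrxA (r = 0.996), a peroxiredoxin of seeds with 6153 TPM in embryo and 1354 TPM in endosperm. The one most like OLE16 was OsGSTF12 (r = 0.999), and the one most like OsLFL1 was BOR2 (r = 0.993). No likeness is read for OsLEC1, since any gene read in embryo alone must follow it. Rab21 had the fewest close companions, with 3 genes over 0.95, against 30 to 118 for each of the other members.

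For m6A, a site was counted in a tissue where the authors' detection flag was set and at least 20 reads covered it. In rice, as in other plants, m6A is placed by a nuclear methyltransferase on adenosines in short motifs, of which RAC is the commonest. The site named below for each gene is the one counted in the most tissues, with ties (as in OsLEC1, OsVP1 and OSEM) settled by the larger summed depth, written 5′ to 3′ in DNA letters as deposited, with the modified adenosine in capitals. They are shown so that the levels given below can be read beside their motifs.
OsLEC1, coding sequence: agAcc
OsVP1, 3′ UTR: tgAcg
OsLFL1, 3′ UTR: aaAcc
OsABI5, coding sequence: agAcg
OSEM, 3′ UTR: ttAgc
LEA3, coding sequence: agAgc
Rab21, coding sequence: tgAtg
OLE16, 5′ UTR: agAca

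On the IRGSP-1.0 genome these sites lie at chr2:30165109 for OsLEC1, chr1:39723281 for OsVP1, chr1:29642714 for OsLFL1, chr1:37174974 for OsABI5, chr5:16518809 for OSEM, chr5:26928478 for LEA3, chr11:15343216 for Rab21 and chr4:27362924 for OLE16. OsLFL1, OsABI5 and LEA3 lie on the plus strand and the others on the minus strand. Across the 46 sites of the members, 22 lay in coding sequence (47.8%, against 35.0% of all listed sites), 18 in the 3′ UTR (39.1%, against 32.01%), 4 in the 5′ UTR (8.70%, against 2.50%), 1 in an intron and 1 at a splice site. RAC motifs made up 47.8% and GAT motifs 19.6% of them, against 52.1% and 21.0% of all listed sites. The other 32.6% had neither motif, against 26.9% of all listed sites. The commonest 5 letters were agAtg, at 7 sites in 6 genes (15.2%, against 7.85% of all listed sites). The letters agAca stood at 4 sites in 3 genes, a share near that of all listed sites (8.7%, against 8.27%). These 3 genes, OsVP1, OSEM and OLE16, carried it in the 5′ UTR close to the transcript start, at nucleotides 41, 18 and 28. The OsVP1 site had only 21 reads in embryo, and the position was not compared with that over all listed sites.

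Most counted sites were those of the seed tissues. Of the 46 sites, 34 were counted in embryo, 18 in endosperm, 3 each in light and dark plumules, 2 in 8-day seedlings and 0 in 2-week seedlings, panicle and flag leaf. At least 20 reads covered 46, 40, 14, 14, 7, 7, 3 and 0 of them in these tissues, in the same order. In flag leaf no site could therefore be counted at this depth. Of the sites covered, 73.9% were counted in embryo and 45% in endosperm, against 37.7% in embryo and 36.8% in endosperm over all listed sites. A site is listed only where at least 1 tissue flagged it, and few non-seed tissues had the reads here, so the embryo share of these genes is not independent of that selection. By breadth, 25 sites were counted in 1 tissue, 12 in 2, 2 in 3, 1 in 5 and 6 in none.

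Among the regulators OsVP1 held 11 listed sites, OsABI5 10, OsLFL1 7, OsLEC1 2 and Sdr4 1. In embryo, 9 sites of OsVP1 were counted, with fractions of 0.107 to 0.694, 8 of OsABI5 (0.104 to 0.936) and 7 of OsLFL1 (0.172 to 1). The named aaAcc site of OsLFL1 had 0.305 in embryo (depth 491) and 0.375 in endosperm (depth 82), and the named agAcg site of OsABI5 0.128 in embryo (depth 194) and 0.159 in endosperm (depth 160). The 2 sites of OsLEC1 had fractions of 0.127 (depth 57) and 0.269 (depth 36) in embryo. The site of Sdr4 was not counted in any tissue, with a fraction of 0.044 at depth 1769 in embryo and 0.0573 at depth 705 in endosperm. The fractions have no replicate value, so differences between tissues have no error and were not tested.

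OsABI5 and OsVP1 differed in the direction of embryo against endosperm. In the 3′ UTR of OsABI5, all 4 sites had a higher fraction in embryo, at depths between 134 and 285 in both tissues. Of 28545 listed 3′ UTR sites flagged in embryo or endosperm with at least 20 reads in both, 51.2% were higher in embryo. All 4 sites of OsABI5 were flagged in embryo alone, so their direction is not independent of how they came to be listed. The agAct site had 0.243 in embryo and 0.0843 in endosperm, the acAta site 0.936 in embryo and 0 in endosperm, the aaAcc site 0.443 in embryo and 0.155 in endosperm, and the ggAcc site 0.258 in embryo and 0.0206 in endosperm. In the coding sequence of OsABI5, 2 of 6 sites were higher in embryo, both flagged in embryo alone. Of these, aaAga had 0.847 in embryo and 0.199 in endosperm at depths of 57 and 58. In OsVP1, 1 of 10 sites was higher in embryo and 9 were lower, with a median difference of -0.113. The ctAgc site of its 3′ UTR had 0.407 in embryo (depth 725) and 1 in endosperm (depth 77), and its named tgAcg site 0.167 in embryo (depth 1080) and 0.272 in endosperm (depth 111). Sites named here other than the 8 listed above were picked after their values were seen. Over all members, 34 sites were flagged in embryo or endosperm and covered by at least 20 reads in both, and 11 of them were higher in embryo (32.4%), against 48.2% of all 61452 listed sites chosen in the same way. Of 21268 listed sites with at least 100 reads in both tissues, 3.36% differed by 0.5 or more. Depth in endosperm was lower for most of these sites, and its part in the differences was not tested.

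**Figure D5:**
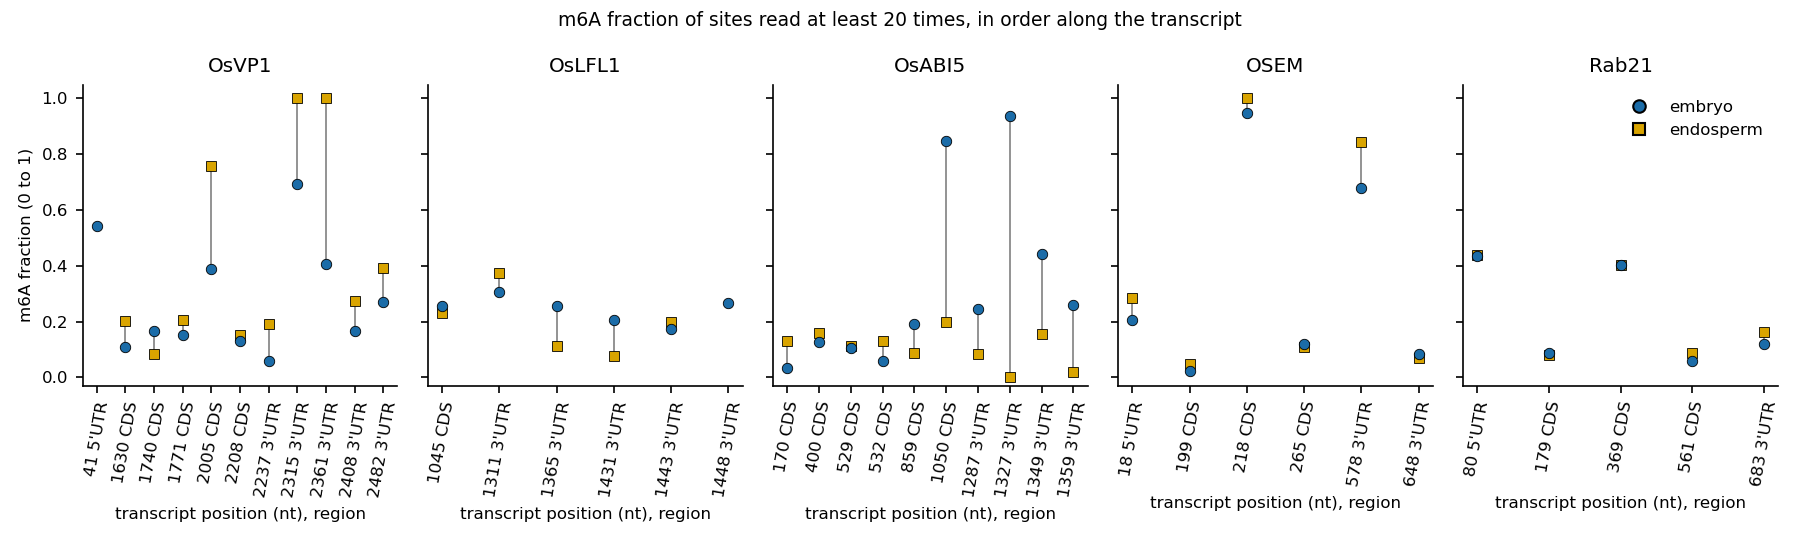
m6A fraction (0 to 1) in embryo (circles) and endosperm (squares) at each site with at least 20 reads, in order along the transcript of 5 genes, with the transcript position and region on the horizontal axis. The 4 sites of the OsABI5 3′ UTR, each flagged in embryo alone, were higher in embryo. Those of OsVP1 were mostly lower (ctAgc and tgAca flagged in endosperm alone), and those of Rab21 lay close together.

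Of the 5 members above 1000 TPM in embryo, OLE18, OLE16 and LEA3 had 0, 1 and 0 counted sites there, against 4 for OSEM and 3 for Rab21. OLE18, at 13088 and 10519 TPM in embryo, had no listed site. OLE16 had 1, in the 5′ UTR, with a fraction of 0.142 in embryo at depth 71490 and 0.152 in endosperm at depth 20587. LEA3 had 2 listed sites and none was counted in embryo, where the fractions were 0.0819 and 0.0519 at depths of 12552 and 19080. Its agAgc site was counted in endosperm (0.101, depth 795) and in dark plumules (0.269, depth 61). OSEM had 4 counted sites in embryo and 3 in endosperm. Its gaAcc site in the coding sequence (chr5:16519276) had a fraction of 0.948 in embryo at depth 7718 and 1 in endosperm at depth 172, and its ttAgc site in the 3′ UTR 0.678 in embryo at depth 33616 and 0.844 in endosperm at depth 780. Of the 96 genes with at least 1000 TPM in embryo, 24.0% had no counted site there and 12.5% had no listed site, with a median of 2 counted sites and a median summed fraction of 0.46. OSEM (summed fraction of 1.95) and Rab21 (0.958) lay above these medians and OLE16, LEA3 and OLE18 below them. Of the 1189 genes between 100 and 1000 TPM, 10.8% had no counted site, with a median of 5 sites and a summed fraction of 1.88.

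Rab21, the LEA gene with the widest expression, held the site counted in the most tissues. The tgAtg site of its coding sequence had fractions of 0.402 in embryo (depth 3555), 0.404 in endosperm (depth 334), 0.584 in light plumules (depth 53), 0.539 in dark plumules (depth 67) and 0.429 in 8-day seedlings (depth 49). In 2-week seedlings it had 0.277 at depth 35 and was not flagged. The ttAgc site of its 5′ UTR had 0.437 in embryo, 0.437 in endosperm and 0.674 in light plumules, where it was counted, and 0.425 in dark plumules, where it was not. The agAtg site of its 3′ UTR was counted at 0.119 in embryo, 0.161 in endosperm and 0.140 in dark plumules. The related neighbors of Rab21 may share reads with these sites as well.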

How the data were processed

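PolyA RNA of 8 tissues was profiled in 32 libraries, grouped by the sample titles, and the 16 columns called input were matched to the untreated libraries by tissue and replicate. The genes and gene lists were chosen with earlier results of these data known. The authors deposited TPM per gene and library with gene length. They also deposited the m6A fraction per site and tissue, calibrated with spike-in probes and combined over replicates, the read depth as a count, and a detection flag. The genome build named by the submitters was IRGSP-1.0, while the aligner and read counter were not given in the sources used here. TPM times gene length gave whole reads for 100% of the small values checked (up to 100 reads, tolerance 0.1), and these recovered reads give the depth.

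log2(TPM + 1) of genes with at least 1 TPM in 2 libraries was fitted with limma 3.58.1 (R 4.3.3; trend, robust; tissue as the factor, 16 libraries), two-sided, with Benjamini-Hochberg adjustment over all genes tested and a threshold of 0.05. The added 1 shrinks fold changes of weakly expressed genes. The script was tested on simulated data. The alternatives were a pseudocount of 0.1, no filter, median-of-ratios rescaling, edgeR 4.0.16 (quasi-likelihood) and DESeq2 1.42.0 on recovered reads, each library left out and a replicate block. Tissues had 2 biological replicates, whose log2 values correlated at r = 0.991 to 0.996. Named were all 10 genes, the 3 genes of each list with the highest mean TPM, and the m6A site of each gene counted in the most tissues (ties by summed depth). Promoter and protein sequences were not used here.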

Additional observations from a re-analysis of the deposited data

How the results depend on the processing

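Of the counts of the 10 genes under the alternatives, 192 stayed within 1.5 times and 16 moved. None of these 16 concerned embryo, endosperm or plumules against embryo. For plumules against older tissues, 2 genes were lower in the main fit, 1 with a pseudocount of 0.1, 1 after median-of-ratios rescaling, 0 with edgeR, 0 with DESeq2 and 1 to 2 with a library left out. For light against dark, 0 genes were higher in the main fit and 1 with DESeq2. For panicle against leaves, 4 genes were higher in the main fit, 2 after the rescaling and 3 to 6 with a library left out. There, 2 were lower in the main fit, 1 with a pseudocount of 0.1, 1 with edgeR, 1 with DESeq2 and 1 to 2 with a library left out. Calls that single libraries changed stand in the report. With an embryo library left out, OsLEC1 failed the filter by construction. DESeq2 gave it an adjusted p of 0.214 for embryo against endosperm, 0.0594 for embryo against non-seed tissues and 0.109 for plumules against embryo.

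Directions turned for 2 genes. OsABI5 differed by -0.15 after the rescaling, -0.18 with edgeR and -0.15 with DESeq2 for embryo against endosperm, and by 0.43 with a pseudocount of 0.1, 0.067 after the rescaling, 0.82 with edgeR, 0.89 with DESeq2 and -0.12 to 0.11 with a library left out for plumules against older tissues (main value -0.0080), where both count tests called it higher. Sdr4 differed by 0.0042 with edgeR there. The causes were not tested.

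Counts of all genes moved more. Higher in embryo than in endosperm were 12751 genes in the main fit, 8341 with edgeR and 7962 with DESeq2, and 6965 were lower, against 10497 after rescaling and 10623 with edgeR. Higher in embryo than in non-seed tissues were 6928, against 10469 with edgeR, and lower were 15811, against 9815 with edgeR and 10075 with DESeq2. Higher in endosperm were 4472, against 10062 after rescaling, 10671 with edgeR and 9963 with DESeq2, and lower were 20172, against 12891, 9257 and 9722. Higher in panicle were 14791, against 9615 after rescaling and 9655 with DESeq2, and lower were 6876, against 10472 after rescaling. Light against dark gave 0 higher and 3 lower, against 31 and 10 with edgeR, 38 and 24 with DESeq2 and 6 higher with a pseudocount of 0.1. Calls higher were 30.5% of all calls for embryo against non-seed tissues and 44.1% after rescaling, 18.1% and 43.8% for endosperm, and 65.0% and 54.7% for plumules against embryo.

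Counted m6A sites, with a fraction of at least 0.1 in place of the flag, numbered 28 in endosperm, 7 in light plumules, 8 in dark plumules, 4 in 8-day seedlings, 4 in 2-week seedlings and 2 in panicle. A depth minimum of 10 gave 5 in light plumules, 1 in panicle and 2 in flag leaf, and a minimum of 50 gave 1 in 8-day seedlings.

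The labels give no shared source behind a replicate number, and the numbers were not taken to pair the samples. The correlation of same-numbered deviations ran between -0.201 and 0.236 over 28 pairs of tissues and exceeded 0.1 in 14, among them all 10 pairs of light plumules, dark plumules, 8-day seedlings, 2-week seedlings and panicles (0.123 to 0.236). With a replicate block, 9 genes were higher in embryo than in endosperm, 10 in embryo and 9 in endosperm than in non-seed tissues, and 4 in panicle than in leaves, as without it, and it changed no other count of the 10 genes.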
